A study of Mus musculus with 4 samples.

Results

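PHF2 and H3K9me2 were examined at the genes of voltage-gated ion channels and their relatives in mouse neural stem cells. The set was every autosomal protein-coding gene of the GENCODE M21 annotation whose symbol starts with Kcn, with Scn and a digit, or with Cacna1. This gave 115 of 20722 autosomal protein-coding genes, and 3 further genes with such symbols lay on X and were left out. The set is defined by name. By symbol, 48 genes belong to families of pore-forming, voltage-gated subunits (Kcna, Kcnb, Kcnc, Kcnd, Kcnh, Kcnq, the Scn alpha subunits and Cacna1). This grouping does not follow the gating of each single member. The other 67 encode inward rectifiers, K2P leak channels, ion-activated channels, silent subunits, Scn beta subunits and accessory subunits.

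The cells were neural stem cells of wild-type C57BL/6J mice at embryonic day E12.5, grown with EGF (20 ng/ml) and FGF (10 ng/ml). The 4 samples were a chromatin immunoprecipitation of PHF2 with the Cell Signaling antibody D45A2, a chromatin immunoprecipitation of H3K9me2 with the Abcam antibody ab1220, and an input for each. Every group held 1 sample, so no spread between cultures could be measured and no difference was tested. The lists held 5992 PHF2 peaks, each with the authors' score, and 36171 H3K9me2 regions, 73 bp or longer, without a usable score. The inputs were not analysed here, and neither list shows how deeply its sample was sequenced. Among markers of the labelled cell type, 9 of 10 progenitor genes had a PHF2 peak at a start (among them Sox2, Nes, Vim, Hes1, Pax6, Sox9, Fabp7 and Notch1, but not Prom1), against 4.79 by CpG content. So did 2 of 8 autosomal neuronal genes (Map2 and Syt1), against 2.73, and 2 of 6 genes each of the astrocyte and oligodendrocyte lineages, against 0.743 and 2.23. Peaks do not measure expression.

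Voltage-gated channels open and close with the membrane potential: sodium channels carry the rise of the action potential, calcium channels couple it to calcium entry, and potassium channels end it and set the resting potential. Most of these genes are known for their use in neurons, heart and muscle, and some potassium and calcium channels also act in dividing progenitors. PHF2 is a histone demethylase whose PHD finger recognises H3K4me3, the mark of active promoters. H3K9me2, dimethylation of histone H3 at lysine 9, marks silent chromatin and is described as a substrate of PHF2.

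The start regions ranged from dense CpG islands to CpG-poor DNA, and sequences at both ends of that range are shown because PHF2 peaks follow CpG content. RefSeq promoters (GRCm38.p6, 250 bases before to 50 after a start) were found for 84 of the 115 genes. All letters are lower case but for CpG dinucleotides, which are in capitals. Kcnc1, which encodes a fast Kv3 potassium channel, has 41 CpGs in chr7:46396218-46396517 (plus strand), inside a PHF2 peak. Kcng3, which encodes a silent potassium channel subunit, has 49 CpGs in chr17:83631846-83632145 (minus strand) and no PHF2 peak. Scn1a, which encodes a sodium channel of inhibitory neurons, has 5 CpGs in chr2:66440788-66441087 (minus strand) and no PHF2 peak.
Kcnc1: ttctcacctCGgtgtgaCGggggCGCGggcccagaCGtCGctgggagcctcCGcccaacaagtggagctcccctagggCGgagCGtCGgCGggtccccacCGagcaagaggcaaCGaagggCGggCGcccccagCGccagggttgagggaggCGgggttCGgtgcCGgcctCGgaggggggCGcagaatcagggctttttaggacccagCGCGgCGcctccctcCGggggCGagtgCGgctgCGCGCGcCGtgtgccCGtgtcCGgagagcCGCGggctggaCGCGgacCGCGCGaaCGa
Kcng3: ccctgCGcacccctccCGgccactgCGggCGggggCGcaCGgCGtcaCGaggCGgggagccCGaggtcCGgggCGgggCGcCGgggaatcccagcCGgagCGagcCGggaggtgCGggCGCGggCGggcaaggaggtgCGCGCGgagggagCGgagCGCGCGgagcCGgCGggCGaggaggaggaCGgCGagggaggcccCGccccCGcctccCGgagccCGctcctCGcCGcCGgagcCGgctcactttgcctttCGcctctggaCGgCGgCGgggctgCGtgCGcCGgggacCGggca
Scn1a: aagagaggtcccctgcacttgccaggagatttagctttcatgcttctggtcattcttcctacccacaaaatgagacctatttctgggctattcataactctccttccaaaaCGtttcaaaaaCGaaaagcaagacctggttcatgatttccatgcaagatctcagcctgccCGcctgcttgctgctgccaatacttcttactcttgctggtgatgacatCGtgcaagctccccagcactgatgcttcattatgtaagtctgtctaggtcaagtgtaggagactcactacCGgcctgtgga

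PHF2 peaks lay at the starts of 18 of the 115 channel genes, 15.7% (95% Wilson interval 10.1% to 23.4%), where 30.1% of all autosomal protein-coding genes had one. A start region was the DNA within 1 kb of any start of a protein-coding transcript, pooled per gene. The channel genes were not CpG-poor: the median CpG observed/expected ratio of their start regions was 0.449, and that of all genes was 0.434. Genes in the same deciles of this ratio would have given 36.2 genes with a peak. The measured count was 0.497 of that number (0.322 to 0.743, from the Wilson interval), which covers counting error only. Leaving out Kcnj, Kcnk, ion-activated, silent, Scn beta and accessory genes gave 9 of 48 with a peak and 0.493 (0.268 to 0.841) of the matched number.

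The lower share was seen at CpG-rich and at intermediate starts. In the 3 lowest deciles, 0 of 23 channel genes had a peak, but only 0.499% of all genes there had one, so a shortfall could not be seen there. In deciles 4 to 7, 10 of 63 channel genes had a peak (15.9%, Wilson interval 8.86% to 26.8%), against 28.5% of all genes. In deciles 8 to 10, 8 of 29 had a peak (27.6%, Wilson interval 14.7% to 45.7%), against 61.8% of all genes. These counts were 0.558 (0.311 to 0.942) and 0.443 (0.236 to 0.735) of the matched numbers. In single deciles the counts were small: decile 6 held 5 of 15 channel genes with a peak, close to the 37.3% of all genes, and decile 9 held 1 of 10, where all genes had 61.2%.

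**Figure D1:**
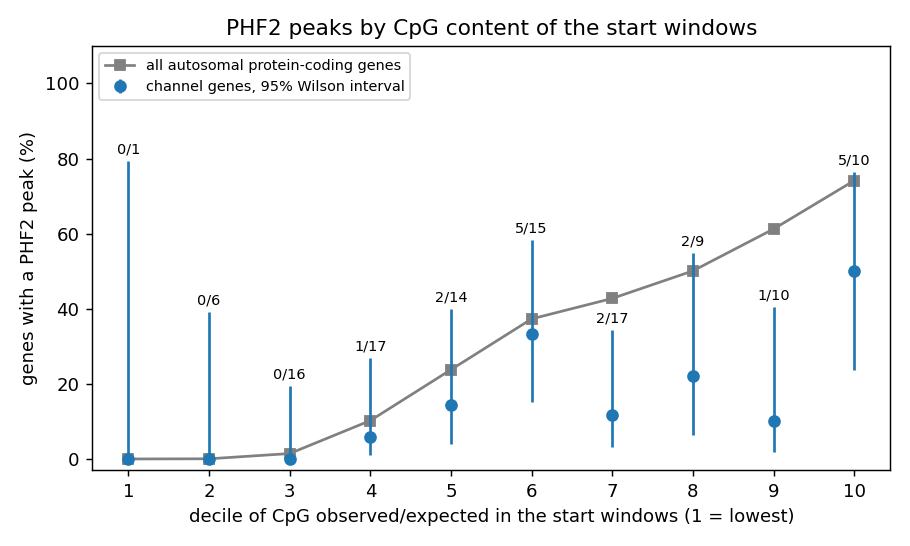
Share of genes with a PHF2 peak within 1 kb of a start (%), by decile of CpG observed/expected in the start regions. Circles are the channel genes with 95% Wilson intervals and counts, squares are all autosomal protein-coding genes. In deciles 4 to 10 every circle lies below its square, from 5.88% against 10.2% in decile 4 to 5 of 10 genes against 74.1% in decile 10, although 5 of these 7 intervals reach the square.

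Gene length went along with this share. Of the 36 channel genes with a body of 100 kb or more, 9 had a peak, 0.800 (0.440 to 1.31) of the CpG-matched number. Of the 79 shorter ones, 9 had a peak, 0.361 (0.193 to 0.641) of the matched number. Over all genes, the same ratios were 1.26 for long and 0.959 for short bodies. The difference between long and short channel genes was not tested.

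The 6 highest-scoring PHF2 peaks of the set belonged to Kcnc1, Kcnj2, Kcnd3, Kcnq5, Cacna1c and Kcna2. Kcnc1 led with a score of 788 (rank 335 of the 5992 peaks), a peak of 3279 bp on chromosome 7, 46395999 to 46399277. Kcnj2, which encodes an inward rectifier that holds the resting potential, followed with 777 (chromosome 11, 111064534 to 111067107). Kcnd3, which encodes a Kv4 channel of the transient A-type current, had a peak with 772 (chromosome 3, 105452019 to 105454196) and next to it a weaker one with 198. These 3 scores are nearly equal, and they and Kcnq5 are the 4 genes of the set whose score lies in the top 10% of the list. Kcnq5 had 698 (chromosome 1, 21960413 to 21962394) and encodes a Kv7 channel of the M-current. Cacna1c, which encodes an L-type calcium channel of heart and brain, had 549. Kcna2, which encodes an axonal Kv1 channel, had 483 (chromosome 3, 107100614 to 107102796).

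The other 12 genes had scores between 108 and 345. They were Kcnma1 (345), which encodes the large-conductance calcium-activated potassium channel, Kcnab2 (251), which encodes a beta subunit of Kv1 channels, and Kcnmb4 (229), which encodes a neuronal beta subunit of the Kcnma1 channel. Scn8a (176) encodes a sodium channel of the axon initial segment and was the only gene of the 14 Scn members with a peak. The K2P channel genes Kcnk10 (166) and Kcnk5 (152), the silent subunit gene Kcnv1 (150.3), Kcna3 (144) and the inward rectifier gene Kcnj16 (143) came next. Kcnn2 (115), which encodes a small-conductance calcium-activated channel, Cacna1a (114), which encodes the P/Q-type calcium channel of presynaptic terminals, and Kcnd2 (108) had peaks near the lowest score of the list, 100.02. The median of the 18 best scores was 203, against 232 for all autosomal genes with a peak, and 8 of 18 lay above the latter. Peak lengths were also of ordinary size, with a median of 1251 bp against 1327 bp.

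**Figure D2:**
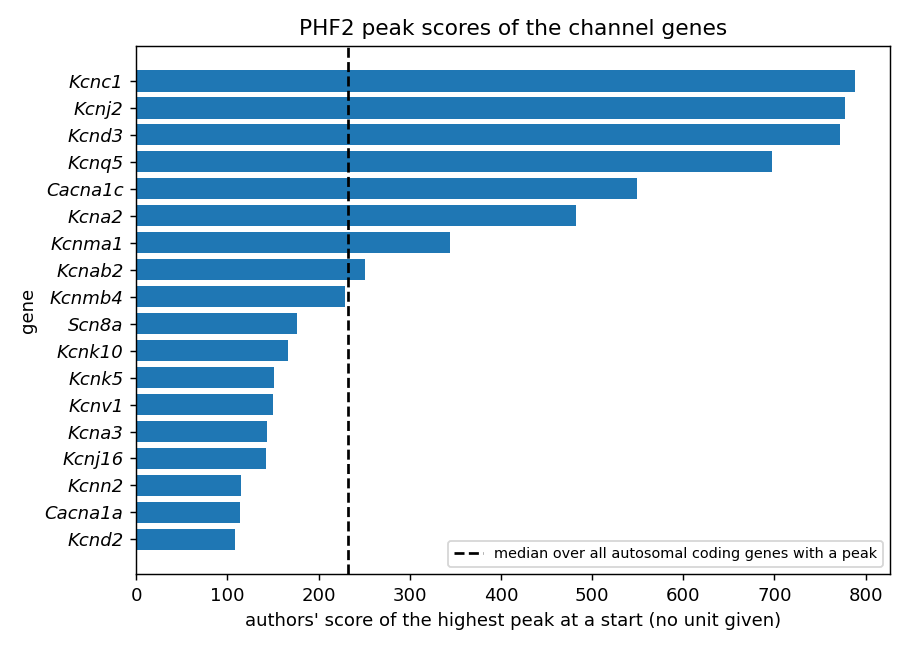
The authors' score of the highest PHF2 peak at a start (no unit given) for each of the 18 channel genes with a peak. Bars are single peaks and the dashed line is the median over all autosomal protein-coding genes with a peak, 232. From Kcnc1 to Kcnma1 the bars run from 788 to 345, and 10 genes end below the line.

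Peaks of the channel genes were centred downstream of the start less frequently than those of all genes, a difference that was not tested. Of the 18 best peaks, 8 had their centre downstream of the nearest start of the gene (44.4%, Wilson interval 24.6% to 66.3%), and over all genes with a peak 72.2% did. The median position was -35.0 bp for the channel genes and 144 bp for all genes. The range went from 667 bp upstream at Cacna1a to 898 bp downstream at Kcnmb4. In 6 of the 18 genes the peak also lay within 1 kb of the start of another annotated gene of any type. This count has no share over all genes beside it. For Kcnab2 this was the coding gene Nphp4, and for Kcnd3, Kcnq5, Kcnma1, Kcnmb4 and Kcnn2 these were noncoding genes or a pseudogene, among them the antisense transcripts Kcnd3os and Kcnmb4os2. Peaks carry no strand, so the peak of such a pair cannot be assigned to one of its genes.

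Where a channel gene had several separate start regions, the PHF2 peak lay at the one richest in CpG. This held for 8 of 8 genes with several start regions and a peak (Cacna1c, Kcnma1, Kcnab2, Kcnd3, Scn8a, Kcnk10, Kcnj16 and Kcnn2). It also held for 96.4% of all such genes with a peak at 1 of their start regions, so it is not particular to channels. In 5 of the 8 the peak lay at a later start region and not at the 5'-most one, against 14.7% of all such genes. Cacna1c has 5 start regions. Its peak (chromosome 6, 119107113 to 119109488) covered the second, with a CpG observed/expected ratio of 0.860, while the others had 0.240 to 0.298. Kcnma1 also has 5, with the peak (chromosome 14, 24003830 to 24005290) at the second, where the ratio was 0.676 against 0.106 to 0.185 at the others. In Kcnn2 the peak lay 290624 bp downstream of the 5'-most start, in Cacna1c 88118 bp, in Kcnj16 29583 bp, in Kcnma1 9931 bp and in Kcnk10 3538 bp. Of the RefSeq promoters of Cacna1c, 2 are shown (GRCm38.p6, minus strand, CpGs in capitals). The 5'-most lies at chr6:119196360-119196659 with 3 CpGs, and the one under the PHF2 peak at chr6:119108446-119108745 with 57. A further one at chr6:118757925-118758224, with 7 CpGs and no PHF2 peak, is not shown.
Cacna1c 5'-most: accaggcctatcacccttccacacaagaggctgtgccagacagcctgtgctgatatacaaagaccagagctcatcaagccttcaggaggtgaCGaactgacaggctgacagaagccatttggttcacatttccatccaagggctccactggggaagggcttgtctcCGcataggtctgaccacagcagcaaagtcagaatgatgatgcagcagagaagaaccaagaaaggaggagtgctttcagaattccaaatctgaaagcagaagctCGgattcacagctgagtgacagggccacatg
Cacna1c second: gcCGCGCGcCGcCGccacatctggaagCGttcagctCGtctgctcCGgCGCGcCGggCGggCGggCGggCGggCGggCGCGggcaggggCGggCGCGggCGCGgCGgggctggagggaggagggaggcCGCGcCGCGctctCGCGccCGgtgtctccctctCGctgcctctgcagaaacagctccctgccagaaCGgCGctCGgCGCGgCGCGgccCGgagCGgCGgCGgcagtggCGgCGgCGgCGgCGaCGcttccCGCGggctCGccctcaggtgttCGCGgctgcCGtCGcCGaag

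By family, the counts were too small to order the families. Among the Kv1 to Kv4 genes (Kcna to Kcnd), which encode the classical delayed rectifier and A-type channels, 5 of 16 had a peak (Kcna2, Kcna3, Kcnc1, Kcnd2 and Kcnd3), 0.620 (0.281 to 1.10) of the CpG-matched number. The Kcnh genes, which encode EAG, ERG and ELK channels, had 0 of 8 where CpG-matched genes gave 3.12, and the upper Wilson bound of their share was 32.4% against 39.0% matched. The silent subunit genes (Kcnf, Kcng, Kcns and Kcnv) had 1 of 10 against 4.04, and the K2P genes 2 of 14 against 5.30. The inward rectifier genes had 2 of 15 against 3.43 and the Kv7 genes (Kcnq) 1 of 5 against 2.31. The Scn alpha genes had 1 of 10, but their start regions are CpG-poor and matched genes gave only 1.32. The Cacna1 genes had 2 of 9 (Cacna1a and Cacna1c) against 3.44. Both Kv4 genes and 2 of 8 ion-activated channel genes had peaks, which put these 2 families above the matched numbers of 1.24 and 1.33. With 14 families, a family whose interval misses the matched share is not shown to differ from the others.

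**Figure D3:**
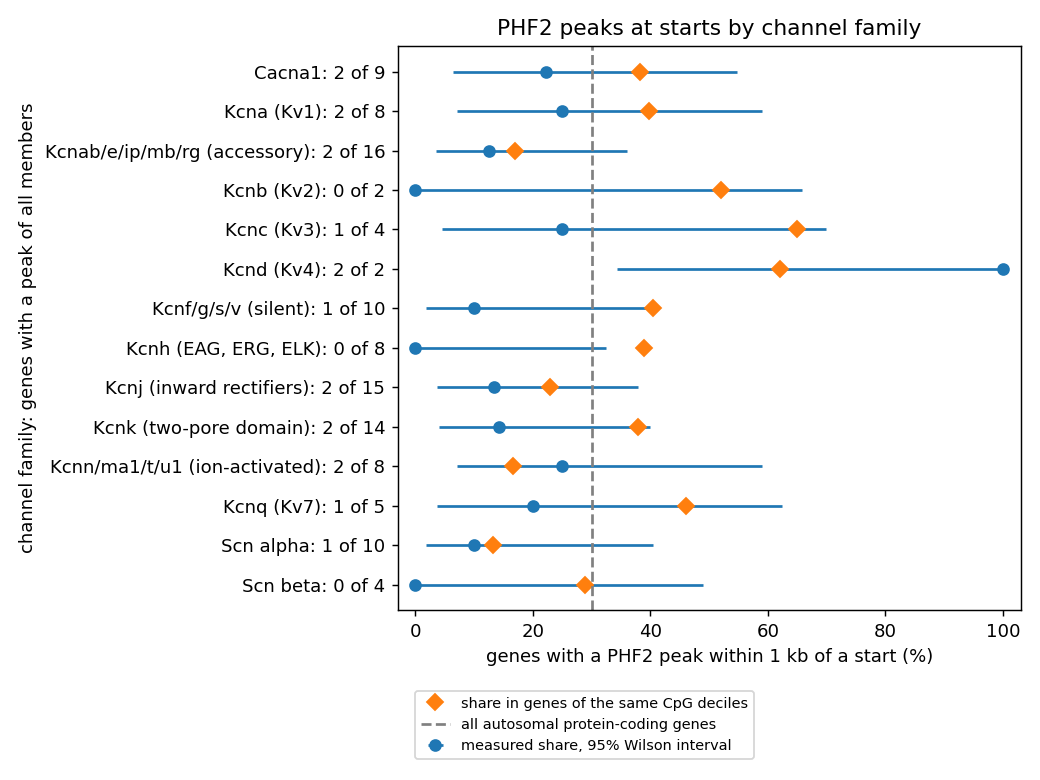
Share of genes with a PHF2 peak within 1 kb of a start (%) in 14 channel families. Circles are measured shares with 95% Wilson intervals, diamonds are the shares of all genes in the same CpG deciles, and the dashed line is the share of all autosomal protein-coding genes, 30.1%. In 12 of the 14 families the circle lies left of the diamond, and the interval of Kcnh, with 0 of 8, ends at 32.4%, left of its diamond at 39.0%.

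CpG-rich starts without a peak were found in several families. Kcng3 had a CpG observed/expected ratio of 0.940, the highest of the channel genes without a peak. Kcnk12 (0.830) and Kcnk9 (0.727) encode K2P family members, Cacna1d (0.679) an L-type calcium channel and Kcnq3 (0.667) a Kv7 channel. Kcnc4 is a relative of Kcnc1, and its start region (0.787) is close in CpG content to that of Kcnc1 (0.771). The nearest PHF2 peak lay 124875 bp from the start of Kcnc4, 279651 bp from that of Kcng3 and 543466 bp from that of Kcnk9. Kcna1, an axonal Kv1 gene (0.666), and Kcnj10, the inward rectifier gene of glia (0.490), had no peak either. Over the 97 genes without a peak, the CpG ratio had a median of 0.405 and reached from 0.119 to 0.940.

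The 5 sodium channel genes Scn3a, Scn2a, Scn1a, Scn9a and Scn7a form a cluster on chromosome 2, 65457118 to 66784914. This span of 1328 kb held 0 PHF2 peaks and 23 H3K9me2 regions, 17.3 per Mb (exact Poisson interval 11.0 to 26.0). The interval includes the 13.7 per Mb of all autosomal protein-coding gene bodies. It also includes the 17.1 and 16.8 per Mb of bodies in the GC classes of these genes. The bodies of Scn2a and Scn9a held 4 regions each, those of Scn1a and Scn7a 2 each and that of Scn3a 0. Their start regions held 0, so the rest of the 23 lay outside these genes. The nearest PHF2 peak lay 289566 bp from a start of Scn3a, 380933 bp from one of Scn2a and 1078301 bp from one of Scn1a. CpG observed/expected was 0.262 at the starts of Scn1a, 0.221 at Scn3a and 0.315 at Scn2a. These lie in deciles 3 and 4, where 1.45% and 10.2% of all genes had a peak.

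Sites of the repressor REST, which binds the RE1 element and silences neuronal genes in progenitors, were sought as sequence because several channel genes are known REST targets. The RE1 core consensus, which the capitals of the sites shown here spell out but for 2 free bases in its middle, was searched for exact matches on both strands within 1 kb of the 5'-most start. It occurred at 5 of 115 channel genes (4.35%, Wilson interval 1.87% to 9.78%) and at 51 of 20722 genes (0.246%). The 5 were Scn2a, Scn3b, Kcnt1, Kcnh4 and Kcnk12. Of these 5, 0 had a PHF2 peak, and of all 51 genes with the core 3 had one, where genes of the same CpG deciles gave 17.8. The difference was not tested. Peaks and CpG deciles were taken over all start regions of a gene, a wider area than the one searched for the core. The sites are shown on the strand that reads as the consensus, with 8 bases on either side and the matched core in capitals (GRCm38). They lie at chr2:65619966-65619980 (Scn2a, plus strand, at -798 bp from the start), chr9:40269744-40269758 (Scn3b, minus), chr2:25864076-25864090 (Kcnt1, minus), chr11:100759011-100759025 (Kcnh4, minus) and chr17:87798586-87798600 (Kcnk12, plus).
Scn2a: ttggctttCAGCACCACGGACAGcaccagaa
Scn3b: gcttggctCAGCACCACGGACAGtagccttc
Kcnt1: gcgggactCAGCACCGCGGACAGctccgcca
Kcnh4: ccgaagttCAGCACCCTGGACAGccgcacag
Kcnk12: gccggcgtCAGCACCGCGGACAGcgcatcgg

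A match of letters does not show that REST was bound. The left part of the element, TTCAGCACC, overlaps the core and occurred at 11 of 115 channel genes (9.57%) and 3.01% of all genes. The right part, GGACAGCGC, also overlaps it and occurred at 3 of 115 (2.61%) and 2.49%. Other promoter elements were searched in the same windows on both strands. The GC box GGGCGG occurred at 81.7% of channel genes and 67.6% of all genes, TATAAA at 45.2% and 59.2%, CCAAT at 87.8% and 91.5%, and the E-box CACGTG at 20.9% and 27.8%. The CRE TGACGTCA occurred at 4 channel genes, among them Kcnn3, Kcna5 and Kcnf1, 3.48% against 4.02%.

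H3K9me2 regions were almost absent from the starts of channel genes, as they were from starts in general. Only 1 of the 115 genes had a region there (0.870%, Wilson interval 0.154% to 4.76%), against 2.37% of all autosomal protein-coding genes, and genes of the same CpG deciles gave 2.62.

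Around the starts, H3K9me2 regions were not far away. The nearest region lay at a median of 25.6 kb from a channel gene's start and 32.6 kb from that of all genes. A region lay within 10 kb of a start at 28 of 115 channel genes (24.3%) and at 22.3% of all genes. Within 5 kb this turned round, with 10 of 115 channel genes against 12.7% of all genes, a pair of differences that was not tested. The 10 included Kcnk15, Kcna7, Kcnk1, Kcna3, Cacna1i, Cacna1c, Kcnn2, Kcnrg and Kcnj6. Of these, Kcna3, Cacna1c and Kcnn2 had a PHF2 peak at a start as well. Such a peak was present at 15.7% of all channel genes and 30.1% of all genes, and the overlap was not tested.

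Gene bodies of channels held 219 H3K9me2 regions in 13.6 Mb, 16.1 per Mb (exact Poisson interval 14.0 to 18.4), against 13.7 per Mb in all autosomal protein-coding gene bodies. A body was the gene's annotated span without its start regions. At least 1 region lay in 48 of the 115 bodies (41.7%), where 23.9% of all genes had one, but channel genes are long, with a median body of 40.8 kb against 15.7 kb. Among bodies of 100 kb or more, 34 of 36 channel genes (94.4%) and 87.3% of all genes had a region. Among shorter ones, 14 of 79 (17.7%) and 16.1% did. Bodies of the same GC deciles gave 182 regions, and the measured count was 1.20 (1.05 to 1.37) of that. Long bodies held more regions per Mb in general, 16.0 against 10.3 per Mb in short ones over all genes. With classes of body length in place of GC content the ratio was 1.06 (0.921 to 1.21), and with GC classes split at 100 kb it was 1.12 (0.973 to 1.27).

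The regions were concentrated in the longest channel genes. In all, 15 genes with 5 or more regions held 150 of the 219 (68.5%) on 53.3% of the body length, and 67 genes held 0. Kcnip4, which encodes a calcium-binding partner of Kv4 channels and has the longest body (1128 kb), had 29 regions, 25.7 per Mb (exact Poisson interval 17.2 to 36.9), where its GC decile gave 19.3. Kcnma1 had 18 regions in 715 kb, 25.2 per Mb (14.9 to 39.8), against 9.86 by GC content. Kcnh7, which encodes an ERG channel of the nervous system, had 13 in 490 kb against 8.37, and Kcnq3 had 9 in 299 kb against 4.46, the highest density of the genes with 3 or more regions, 30.1 per Mb (13.8 to 57.1). The lower bounds for Kcnma1, Kcnh7 and Kcnq3, 14.9, 14.1 and 13.8 per Mb, lay just above the 13.7 per Mb of all genes. Against bodies of like GC content, the lower bound of Kcnh7 lay below the 17.1 per Mb of its class and that of Kcnq3 below 14.9. Those of Kcnma1 (class rate 13.8) and Kcnip4 (17.1) lay above. Over all genes, bodies of 100 kb or more held 16.0 per Mb. The lower bound of Kcnma1, 14.9, lay below that rate, and that of Kcnip4, 17.2, lay above it. These genes were picked for their high counts or densities.

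The remaining genes with 5 or more regions ranged from fewer regions than their GC content gave to 2.13 times that number. Kcnn2 and Kcnd2 had 10 regions each against 6.92 and 8.77. Cacna1e, which encodes the R-type calcium channel, and Kcnq5 had 8 each against 6.72 and 9.44. Kcnip1 had 7 against 4.52, Kcnb2 7 against 7.10 and Cacna1c 7 against 7.49. Kcnab1, Kcnh5, Kcnh8 and Kcnq1 had 6 each against 4.39, 4.68, 6.30 and 2.82. Other genes of high density were Scn2a (4 regions, 28.2 per Mb), Kcnk10 (4, 27.5 per Mb), Scn9a (4, 26.0 per Mb) and Kcnn2 (10, 24.3 per Mb), each with a Poisson interval that includes 13.7 per Mb. The longest bodies without a region were those of Scn8a (166 kb) and Scn3a (107 kb), where GC content gave 1.47 and 1.80.

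**Figure D4:**
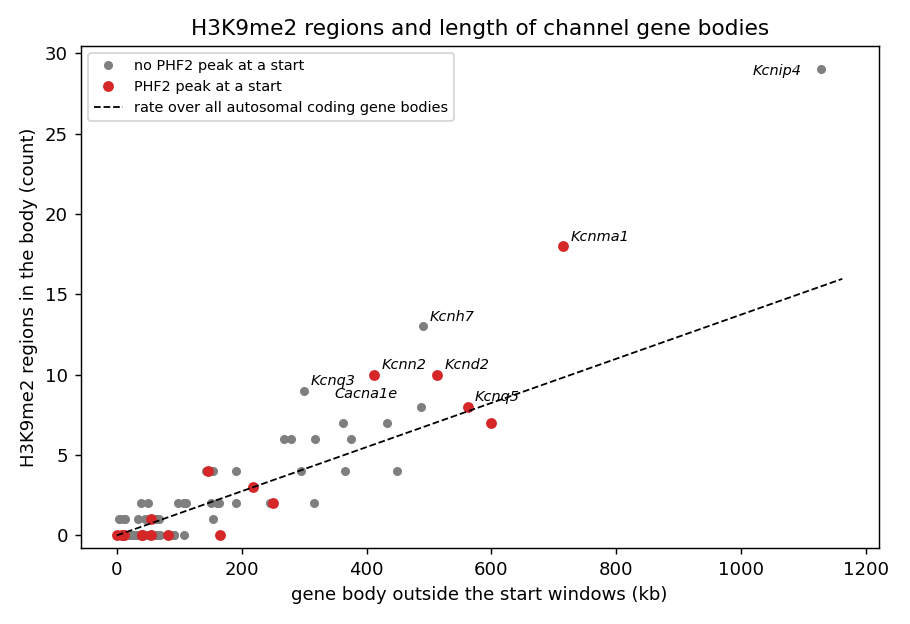
H3K9me2 regions in the body (count) against the length of the body outside the start regions (kb), for each of the 115 channel genes. Red points had a PHF2 peak at a start, grey points did not, and the dashed line is the rate over all autosomal protein-coding gene bodies, 13.7 per Mb. Counts follow length, and Kcnip4 (29 regions), Kcnma1 (18) and Kcnh7 (13) lie farthest above the line.

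By family, the density ran from 7.58 per Mb in the Kv3 genes (2 regions) to 20.6 per Mb in the accessory subunit genes (48 regions, exact Poisson interval 15.2 to 27.3), of which Kcnip4 held 29. The Kv7 genes had 19.5 per Mb (12.6 to 28.8), the ion-activated channel genes 18.2 and the Kcnh genes 17.4 (11.5 to 25.3). The Scn alpha genes had 12.2 (6.69 to 20.5) and the Cacna1 genes 11.7 (7.63 to 17.1). These intervals overlap one another, so the families were not told apart. Kcnma1, Kcnd2, Kcnn2, Kcnq5 and Cacna1c had both a PHF2 peak at a start and 7 or more regions in the body. All of them have bodies of 100 kb or more. In that class 9 of 36 channel genes and 48.1% of all genes had a PHF2 peak. The overlap itself has no share over all genes beside it and was not tested.

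Most regions lay in introns and were short. Of the 219, 214 lay in introns (97.7%, against 94.5% over all genes), 2 in coding exons (Scn1a and Kcnk10) and 3 in other exons (Kcnip1, Kcnrg and Kcnv2). The minimum length of 73 bp was shared by 125 of them (57.1%, against 56.1%), and the longest, in an intron of Cacna1e, had 218 bp (chromosome 1, 154633909 to 154634126). A total of 129 contained no CpG at all (58.9%, against 55.2%). In 21 regions (9.59%) at least 50% of the bases were repeats, as the reference marks them, against 14.8% over all genes. Over 5 equal parts of the gene span, from the start onwards, 49, 51, 39, 38 and 42 regions were counted. The plot of positions shows this spread for the genes with most regions.

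**Figure D5:**
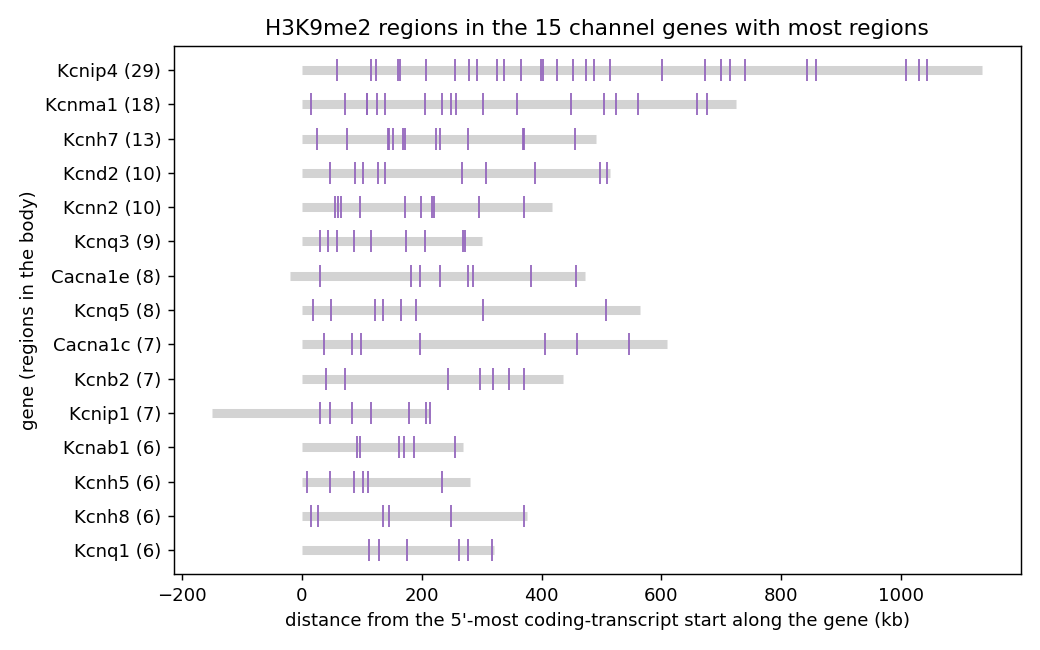
Position of each H3K9me2 region (vertical tick) in the 15 channel genes with most regions, as distance from the 5'-most start of a protein-coding transcript (kb). Grey bars are the annotated gene spans, which at Kcnip1 and Cacna1e begin upstream of that start, and the number of regions stands beside each symbol. The 29 regions of Kcnip4 and the 18 of Kcnma1 are spread along their genes.

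PHF2 peaks inside channel gene bodies, away from the gene's own starts, were found in 2 of 115 genes (1.30% of all genes had one), 0.147 per Mb (exact Poisson interval 0.0178 to 0.531) against 0.322 per Mb over all genes. Both lay at the start of another gene. The peak in an intron of Kcnq1 (score 199, chromosome 7, 143295408 to 143296829) lay 190 kb from the 5'-most start, at the start of Kcnq1ot1, the antisense noncoding RNA that is known for silencing the imprinted domain around Kcnq1. Kcnq1 itself, which encodes the Kv7 channel of heart and epithelia, had no peak at its own start, and 6 H3K9me2 regions in its body. The peak in an intron of Cacna1c (score 266, chromosome 6, 119174911 to 119176142) lay at the start of Dcp1b, a decapping factor gene.

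Genes that work with these channels but do not bear their names were taken from a list of 38. PHF2 peaks lay at 12 of them (31.6%), against 14.1 by CpG content. Those with the highest scores were Fgf14 (934), which encodes an intracellular partner of sodium channels, and Cacnb2 (553) and Cacna2d1 (509), which encode calcium channel subunits. Nedd4l (466), Ank2 (316), Cacna2d3 (266), Fgf12 (229), Tpcn1 (201) and Unc79 (191) followed. The calcium channel beta, alpha2delta and gamma subunit genes had 3 of 16 (5.50 by CpG content). Rest and the genes of its corepressors, Rcor1 and Rcor2, all had a peak, with scores of 203, 299 and 126. For these 3 genes CpG content gave 1.86. No gene of the list had an H3K9me2 region at a start (upper Wilson bound 9.18%). Genes of the same CpG deciles gave only 0.742, and 2.37% of all genes had one, so a shortfall could not be seen here. Their bodies held 125 regions, 14.7 per Mb (12.2 to 17.5), with 22 in Cacna2d3. The Kv4 partner genes Dpp6 and Dpp10 held 18 and 11.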

How the data were processed

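The track line of the deposited PHF2 list, its file header, names MACS run in Galaxy, and the submitters' processing notes name Bowtie2 and mm10. No source used here names the MACS version or control, or the program behind the H3K9me2 regions. The score in the deposited PHF2 list is the authors' value per peak, of unstated scale, and in the deposited H3K9me2 list it is 0 in every row. Depth is unknown, so intervals cover counting error only.

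Coordinates are mm10 (GRCm38), 1-based, with the GENCODE M21 annotation. Genes needed a start of a protein-coding transcript. Overlap was 1 bp or more. Matched numbers are sums over the channel genes of the rate of all autosomal protein-coding genes in the same of 10 CpG classes, or of the rate per Mb in the same of 10 body GC classes. Neighbouring genes that share a peak each count it. The interval and matching steps were tested on simulated data. Shares have Wilson and densities exact Poisson intervals of 95% (Python 3.11.15, scipy 1.17.1, pysam 0.24.0).

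The members, lists and tests were chosen with earlier results of these data known. Genes named were the members with PHF2 peaks, with H3K9me2 regions at starts, or with most regions in the body by number or density, those of the 10 highest CpG ratios without a peak, the longest bodies without a region, and a fixed list of well-known channels. Some genes that this rule names are not reported here. Clusters and genes outside this rule were named after their values were seen. Alternatives were other windows, starts, overlaps, score and length limits, classes and memberships.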

Additional observations from a re-analysis of the deposited data

How the results depend on the processing

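The PHF2 count relative to the CpG-matched number stayed below 1 under all 14 alternatives run, from 0.385 with the 5'-most start alone to 0.529 with windows of 500 bp. With GC content in place of the CpG ratio it was 0.417. The number of channel genes with a PHF2 peak was 9 with only peaks at or above the median score and 9 among the pore-forming voltage-gated subunits, and between 13 and 19 otherwise. The number with an H3K9me2 region at a start was 2 of 115 with windows of 2 kb (5.14% of all genes), 10 with windows of 5 kb (12.7%), 0 with the 5'-most start alone (1.47%), 0 with regions longer than the minimum (0.965%) and 4 with the starts of all transcripts (3.62%). In gene bodies, regions longer than the minimum gave 6.91 H3K9me2 regions per Mb against 6.04 over all genes. PHF2 peaks in the whole gene span, start regions included, came to 1.51 per Mb against 6.49 over all genes. This density was not matched for gene length and counts the peaks at starts over the whole span. Channel genes are longer, with a median body of 40.8 kb against 15.7 kb. The H3K9me2 count relative to the matched number stayed between 1.06 and 1.27 in 9 alternatives. The lowest value came from classes of body length in place of GC content, and the others used GC classes. The interval of this ratio reached below 1 with regions longer than the minimum (1.18, 0.957 to 1.45) and with classes of body length. It also did so with GC classes split at 100 kb and among the pore-forming subunits (1.12, 0.921 to 1.34). Without Kcnip4 the ratio was 1.17 (1.01 to 1.35). Leaving out Kcnip4, splitting classes by body length or by the number of start regions, and the starts of all transcripts were chosen after seeing the data. No paired analysis was possible because each group held 1 sample. The unknown depth limits what the absence of a peak or region shows.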

Other observations

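The channel gene clusters were chosen after their values were seen. The exact Poisson intervals of their H3K9me2 densities overlap one another, so the clusters were not told apart by density. The cluster of Kcna3, Kcna2 and Kcna10 on chromosome 3 (107036169 to 107195721, 160 kb) held 2 PHF2 peaks, at Kcna2 and Kcna3, and 7 H3K9me2 regions, 43.9 per Mb (exact Poisson interval 17.6 to 90.4). The bodies and start regions of the 3 genes held 0 regions, so all 7 lay outside them. The cluster of Kcna5, Kcna1 and Kcna6 on chromosome 6 (126532551 to 126740674) held 0 PHF2 peaks and 2 H3K9me2 regions, 9.61 per Mb (1.16 to 34.7). The neighbours Kcnj16 and Kcnj2 on chromosome 11 (110968033 to 111076821) each had a PHF2 peak of their own, with scores of 143 and 777. Their span held 0 H3K9me2 regions, with an upper bound of 33.9 per Mb.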
